A study of Mus musculus with 40 samples.

Results

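In brown adipose tissue, 939 distal regions carried acetylation of histone H3 at lysine 27 (H3K27ac) in at least 5 of 8 mice, yet overlapped no peak of monomethylated lysine 4 (H3K4me1) in any mouse. They were found by merging overlapping peaks of the 8 H3K27ac lists into 47548 regions, of which 16042 had a peak in 5 or more lists and are called recurrent here. Of these, 6148 lay more than 2500 bp from every annotated start site of the mouse genome build GRCm38, and 2324 of the 6148 overlapped trimethylated lysine 4 (H3K4me3) and were set aside. The other 3824 distal regions divided into 2885 that overlapped H3K4me1 in at least 1 list and the 939 that did not, which is 24.6% (95% Wilson interval 23.2 to 25.9%, counting error only). Because the regions were chosen by the peak calls of the 3 marks and by distance, these counts are given as a description with no test.

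The series profiled 4 histone marks and an input in 8 wild type C57BL/6N mice aged 20 weeks, with peak lists for 32 of the 40 samples. Mice 1 and 2 were warm (kept at the housing temperature) on a normal chow diet (NCD), mice 4 and 5 were on NCD and cold, meaning 4 °C for 24 h, mice 7 and 8 were warm on a high-fat diet (HFD), and mice 10 and 11 were cold on HFD. HFD had been fed for 12 weeks from the age of 8 weeks. The study's methods name interscapular brown adipose tissue (iBAT, as in the sample labels), whereas the series' design text calls it inguinal, and the depot was not resolved here. The methods can be read as 2 mice per sequencing experiment, so that a library may hold pooled tissue, and p-values over mice measure the spread between these libraries. The tissue was profiled whole, with all its cell types, and a weak mark in many cells cannot be told apart from a strong mark in few.

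The lists differed widely in size before any region was chosen. The H3K27ac lists held 16889 and 28433 peaks in mice 1 and 2, 30544 and 30495 in mice 4 and 5, 3224 and 33798 in mice 7 and 8, and 14511 and 40604 in mice 10 and 11. The H3K4me1 lists of mice 1, 7 and 10 held only 592, 12 and 18 peaks, while those of mice 2, 4, 5, 8 and 11 held 21356, 15676, 27568, 17597 and 7774. Absence of H3K4me1 therefore rests almost wholly on the latter 5 lists. The brown fat identity of the tissue was visible at the start site of Ucp1, the uncoupling protein of brown adipocytes, which had H3K27ac within 1000 bp in 8 of 8 mice, as did that of Cidea, whereas Alb, the albumin gene of liver, had it in 0.

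H3K27ac is laid down by the acetyltransferases p300 and CBP and marks active promoters and enhancers. H3K4me1 is written mainly by the MLL3 and MLL4 methyltransferases and is the usual companion of H3K27ac at enhancers, while H3K4me3 marks active promoters. Brown adipose tissue uses distal elements to turn on its heat-producing genes when noradrenaline reaches it in the cold, and it also holds a dense capillary bed whose endothelial cells have their own enhancers.

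To show what these regions consist of, 201 bases are printed around the highest summit of 7 of them, 100 on each side, from the plus strand of the RefSeq sequence of GRCm38. The first 3 belong to regions among the 10 with the highest rank of H3K27ac fold, but are not the 3 highest. The others, chosen after the values were seen, stand for the loci that held most regions (Dio2 and S1pr1) and for Kdr. Each is named by the protein-coding gene with the nearest start site, which does not say which gene a region acts on. Capitals mark letters that match 1 of 15 motifs searched on both strands.
Mrtfb, chr16:13498581-13498781: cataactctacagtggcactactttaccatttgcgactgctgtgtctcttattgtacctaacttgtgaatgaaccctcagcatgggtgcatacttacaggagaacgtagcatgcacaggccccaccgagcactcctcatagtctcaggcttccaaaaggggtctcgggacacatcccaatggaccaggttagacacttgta
Herc1, chr9:66329986-66330186: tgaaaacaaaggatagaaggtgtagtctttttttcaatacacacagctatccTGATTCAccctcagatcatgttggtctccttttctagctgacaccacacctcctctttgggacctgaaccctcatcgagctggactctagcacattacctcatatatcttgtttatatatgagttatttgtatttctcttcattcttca
Foxn2, chr17:88298328-88298528: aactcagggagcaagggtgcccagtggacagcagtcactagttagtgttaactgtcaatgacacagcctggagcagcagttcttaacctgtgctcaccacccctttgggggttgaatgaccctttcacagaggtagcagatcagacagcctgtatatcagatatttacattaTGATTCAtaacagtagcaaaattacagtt
Dio2, chr12:90645052-90645252: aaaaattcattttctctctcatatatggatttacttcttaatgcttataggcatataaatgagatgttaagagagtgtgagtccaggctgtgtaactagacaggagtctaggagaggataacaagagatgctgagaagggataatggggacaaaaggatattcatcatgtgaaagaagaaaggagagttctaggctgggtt
Dio2, chr12:90580410-90580610: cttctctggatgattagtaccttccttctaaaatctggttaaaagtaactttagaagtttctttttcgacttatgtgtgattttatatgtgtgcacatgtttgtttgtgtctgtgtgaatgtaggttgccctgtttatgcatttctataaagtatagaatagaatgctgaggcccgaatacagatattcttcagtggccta
S1pr1, chr3:115763219-115763419: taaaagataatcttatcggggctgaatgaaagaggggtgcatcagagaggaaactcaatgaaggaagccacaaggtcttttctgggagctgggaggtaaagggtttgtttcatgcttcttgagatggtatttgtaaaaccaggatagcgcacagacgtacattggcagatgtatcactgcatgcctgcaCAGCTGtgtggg
Kdr, chr5:75962739-75962939: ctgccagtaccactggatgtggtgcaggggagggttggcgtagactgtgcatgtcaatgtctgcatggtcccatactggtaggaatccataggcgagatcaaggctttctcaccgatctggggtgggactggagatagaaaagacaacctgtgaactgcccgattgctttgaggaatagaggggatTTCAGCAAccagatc

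The Herc1 and Foxn2 windows each hold TGATTCA, a match to the AP-1 motif TGANTCA. Repeat-masked bases made up 66.3% of the 501 bases around the Foxn2 summit and 4.59% around that of Herc1. Lower case in the printed sequences does not mark repeats. The S1pr1 window holds the E-box CAGCTG, and the Kdr window holds TTCAGCAA, which is the C/EBP motif TTGCNNAA on the minus strand. No searched motif lies in the windows of Mrtfb or either Dio2 region.

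Most of the 939 regions were just recurrent. A peak was present in exactly 5 lists for 512 regions, in 6 for 279, in 7 for 117 and in all 8 for 31. Regions with H3K4me1 were spread further up, with 1034, 837, 660 and 354. The share of distal regions that lacked H3K4me1 was thus 33.1% among those in 5 lists, 25% in 6, 15.1% in 7 and 8.05% in 8. Outside the limit of 5 lists, a further 635 distal regions without either methyl mark had a peak in 4 lists. Their median within-list percentile was 42.3, against 49.2 for the members in 5 lists. When mouse 4, 5, 8 or 11 was left out and 5 of the other 7 lists were required, the rule gave 504, 624, 559 or 508 regions. Leaving out a mouse also leaves out its other marks, so these sets need not lie within the 939.

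The regions without H3K4me1 were also narrower. Their median width was 1316 bp (quartiles 908 and 1858 bp, range 328 to 7447 bp), against 1778 bp with H3K4me1. When all 3824 distal regions were split into quartiles of width, 37.8% of the narrowest (328 to 1144 bp) lacked H3K4me1, then 27.3%, 21.3% and, among the widest (2424 to 14738 bp), 11.8%. A wider region has more room to overlap a peak of any mark, so no test was applied to width. At an equal number of lists the order was the same, with medians of 1192.5 and 1311 bp in 5 lists and of 2161 and 3288 bp in 8.

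**Figure D1:**
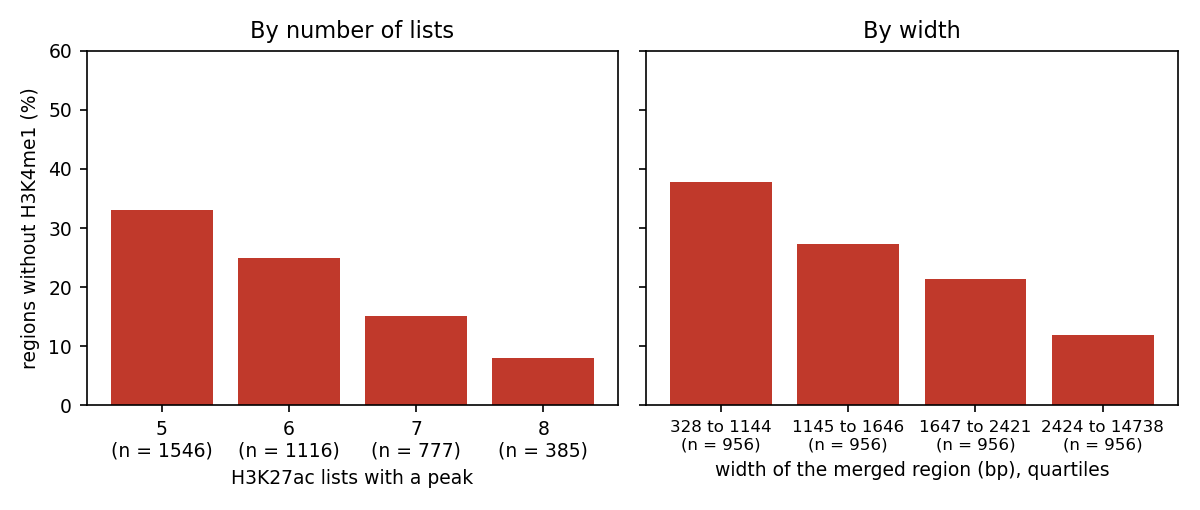
Percent of distal H3K27ac regions that overlapped no H3K4me1 peak (bars, from 0), by the number of H3K27ac lists with a peak (left) and by quartile of the width of the merged region in bp (right), with the number of regions under each bar. The share falls from 33.1% to 8.05% with the number of lists and from 37.8% to 11.8% with width.

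The nearest H3K4me1 peak lay at a median of 8244 bp. It was within 1000 bp for 144 regions (15.3%) and within 5000 bp for 349 (37.2%), and the closest pair was 32 bp apart, at the region near Ppp2r2a, a regulatory subunit gene of protein phosphatase 2A. On the other side of the rule, 632 of the 2885 regions with H3K4me1 (21.9%) had it in exactly 1 list, and the median percentile of these was 57.9. Distance to a start site began at 2514 bp inside the rule and ended at 2481 bp among the 224 recurrent regions without either methyl mark that lay just too close. H3K27me3, the Polycomb mark of silenced genes, overlapped 1 of the 939 regions, 52021 bp from Pcdh1, a protocadherin gene, and 0 of the 2885. Its lists held 47, 133, 309, 6428, 21, 165, 20 and 1392 peaks in mice 1, 2, 4, 5, 7, 8, 10 and 11. Most were thus too short for absence of this mark to say much.

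In every mouse, the acetylation of the regions without H3K4me1 ranked lower than that of the regions with it. Fold over input (column 7 of the peak lists) was turned into a percentile within each mouse's own H3K27ac list, where 100 is the strongest peak, since folds are not comparable between lists. A percentile still depends on the length of the list, from 3224 peaks in mouse 7 to 40604 in mouse 11. Where mice are said to overlap or to rank above one another by it, this describes within-list ranks only. The rule used the presence of H3K27ac peaks, alike in both classes, but not their fold. It was not free of width, however. A wider region has more room to overlap an H3K4me1 peak, and each region took its strongest peak per list. The median percentile of the regions without H3K4me1 was 27.6 and 43.0 in warm NCD mice 1 and 2, 72.3 and 44.8 in cold NCD mice 4 and 5, 47.0 and 62.3 in warm HFD mice 7 and 8, and 39.9 and 68.7 in cold HFD mice 10 and 11. In the same order, the regions with H3K4me1 had 40.1, 57.9, 73.8, 61.7, 55.0, 69.8, 53.1 and 71.9. Mice 4, 8 and 11 had the highest values in both classes. Mouse 7's value rests on 38 regions.

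The difference within a mouse averaged -9.73 percentile points (SD 5.55, n = 8 mice, range -16.9 to -1.53) and was below 0 in 8 of 8 mice, with p = 0.00781 in an exact two-sided sign-flip test over mice, the smallest p that test can give. Treating the medians as unpaired, with no block for the mouse, gave the same difference and p = 0.172 in an exact permutation test. When absence meant no H3K4me1 peak within 500 bp of the summit, a split that does not use width, the difference was -6.58 points. The exact sign-flip test then gave p = 0.0312. Regions with H3K4me1 were in more lists, and regions in more lists ranked higher. When medians were compared only among regions with equal numbers of lists and then averaged, the difference was -4.22 points (SD 5.58), below 0 in 5 of 8 mice, with p = 0.0859 by the same exact test. The call was thus lost once the number of lists was held equal. Within 5 lists the median over regions was 49.2 without and 49.3 with H3K4me1, and within 8 lists it was 82.5 and 85.7.

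**Figure D2:**
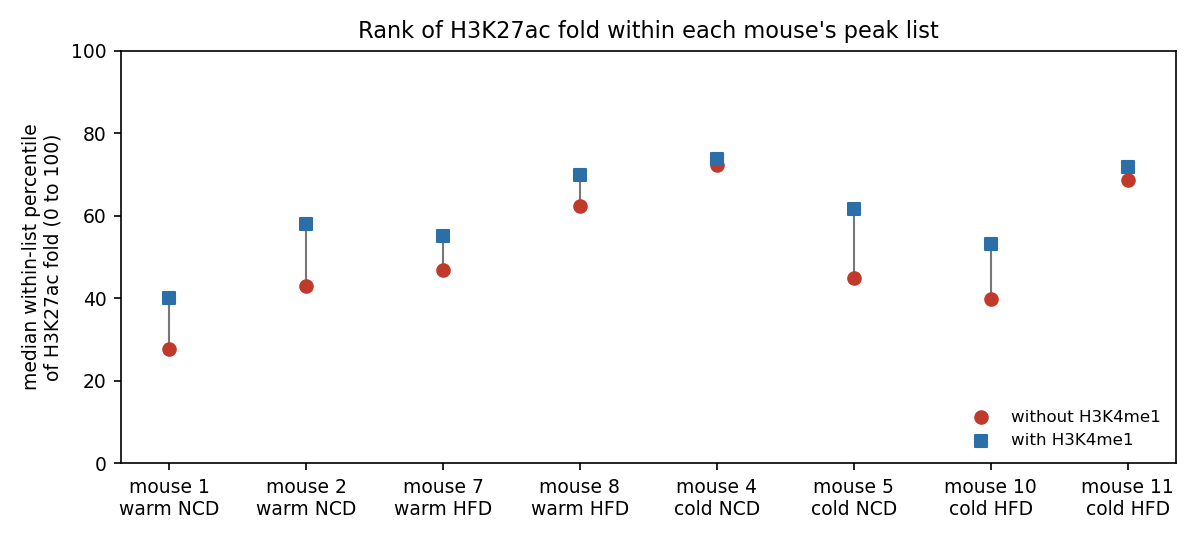
Median within-list percentile of H3K27ac fold (0 to 100, 100 strongest) in each of the 8 mice, for distal regions without (circles) and with H3K4me1 (squares), joined by a line within a mouse. The circle lies below the square in 8 of 8 mice, with differences from -16.9 points in mouse 5 to -1.53 in mouse 4.

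The highest ranked of the 939 was a 1735-bp region at chr12:99187192-99188926, 102351 bp from Foxn3, which encodes a forkhead repressor, and 24384 bp from the noncoding gene 4930474N09Rik. Its folds were 10.3 and 6.74 in warm NCD mice 1 and 2, 18.8 and 19.9 in cold NCD mice 4 and 5, 15.5 in warm HFD mouse 8, and 12.1 and 25.7 in cold HFD mice 10 and 11, with no peak in mouse 7. Its within-list percentile was 88.0 and 52.7 in mice 1 and 2, 98.2 and 96.7 in mice 4 and 5, 98.7 in mouse 8, and 96.9 and 99.5 in mice 10 and 11. Warm mouse 8 ranked above 3 of the 4 cold mice, so the groups overlapped.

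Among the 31 regions with a peak in all 8 lists, the median percentile ran from 60.7 to 92.0. The first was a 3146-bp region at chr16:13497415-13500560, 138994 bp from Mrtfb, a coactivator of serum response factor. Its folds were 11.3, 15.7, 13.8, 12.9, 6.86, 12.1, 8.77 and 22.0 in mice 1, 2, 4, 5, 7, 8, 10 and 11. Its percentiles were 91.3, 92.7, 95.1, 86.7, 74.98, 96.0, 89.2 and 99.03 in the same order, with the highest and the lowest both in HFD mice, and cold and warm mice overlapped. An H3K4me1 peak lay 2274 bp away and a region that carries H3K4me1 561 bp away.

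The next of these 31 lay near Macf1, which crosslinks microtubules and actin (median percentile 90.5), near the forkhead gene Foxn2 (89.5), near Lin9, a subunit gene of the cell-cycle DREAM complex (88.8), near the PDZ scaffold gene Mpdz (88.4) and near Hpx, the haem-binding plasma protein haemopexin (88.2). They were followed by regions near Pik3r1, the regulatory subunit of phosphoinositide 3-kinase (86.7), near Mybpc3 within an intron of Spi1, the myeloid transcription factor PU.1 (86.6), near Tmem167 (85.8) and near Slc17a8, a vesicular glutamate transporter (85.6). The Lin9 region had percentiles from 83.9 in mouse 10 to 97.0 in mouse 4. The Mybpc3 region had percentiles of 79, 85.2, 96.1, 94.1, 88.2, 8.84, 88.04 and 85.1 in mice 1, 2, 4, 5, 7, 8, 10 and 11, with mouse 8 lowest.

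The other regions among the 10 highest were in fewer lists. They lay near Herc1, a giant ubiquitin ligase (91.6, 5 lists), Nr4a2, an orphan nuclear receptor (91.2, 7 lists), Sgms1, a sphingomyelin synthase (90.7, 7 lists), and Ppp2r2a (89.8, 6 lists). The 1156-bp region 72110 bp from Nr4a2 had percentiles of 73.2 and 94.8 in mice 1 and 2, 91.3 and 96.02 in mice 4 and 5, 91.2 in mouse 8, and 43.6 and 87.9 in mice 10 and 11. Its highest values were in NCD mice 2 and 5, and cold and warm mice overlapped.

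The 5 widest regions measured 5900 to 7447 bp. They lay near Lrrc8c, a subunit of volume-regulated anion channels, Gimap6, a small GTPase of the immunity-associated family, Mcf2l, Prkch, a protein kinase C, and Dusp6, a phosphatase that switches off ERK. The Dusp6 region, 87261 bp from that gene, was in all 8 lists with a median percentile of 84.0, and its nearest H3K4me1 peak was 81328 bp away. The Lrrc8c region, in 7 lists, was 68444 bp from any H3K4me1 peak.

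Presence was lowest in the mice with the shortest H3K27ac lists. Of the 939 regions, 28.2 and 84.9% had a peak in warm NCD mice 1 and 2, 98.8 and 97.2% in cold NCD mice 4 and 5, 4.05 and 96.2% in warm HFD mice 7 and 8, and 55.8 and 99.4% in cold HFD mice 10 and 11. For regions with H3K4me1 these were 50.8, 96.0, 98.8, 98.4, 13.4, 97.3, 57.9 and 99%. Mice 1, 7 and 10, with the smallest lists, accounted for 1990 of the 2211 absences.

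Cold mice had on average 87.8% of the regions (SD 21.4, n = 4) and warm mice 53.3% (SD 44.3, n = 4), a difference of 34.5 percentage points. It was 41.5 points within NCD and 27.5 within HFD, with 2 mice on each side, and 18.1 points when mouse 7 was left out. HFD mice had 63.8% (SD 44.5, n = 4) and NCD mice 77.3% (SD 33.3, n = 4), a difference of -13.4 points, which became 6.49 points when mouse 7 was left out. Presence of a peak is what the rule used to choose the regions, so these values are a description with no test.

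Presence was then set against that of the regions with H3K4me1 in the same mouse. The difference, without minus with H3K4me1, averaged -0.695 percentage points in cold mice (SD 1.11) and -11.1 points in warm mice (SD 8.85). Among warm mice it was smallest in mouse 8 and largest in mouse 1. By diet it averaged -3.05 points on HFD (SD 4.35) and -8.71 on NCD (SD 10.5). As both classes were set by the rule, no test is given here either.

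**Figure D3:**
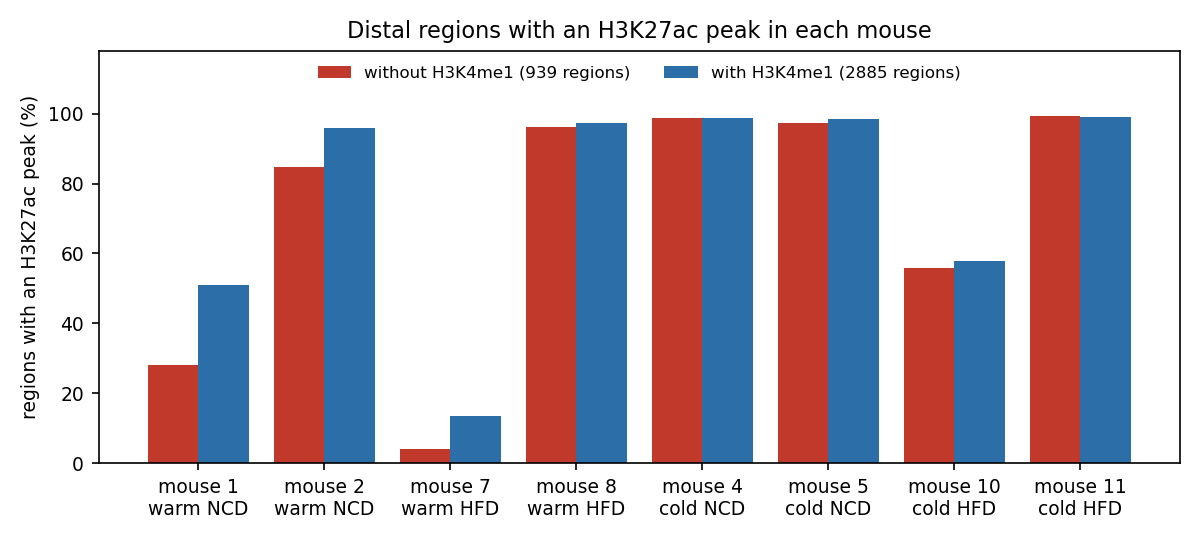
Percent of the 939 distal regions without H3K4me1 and of the 2885 with it that had an H3K27ac peak in each mouse (bars, from 0; warm mice left, cold mice right). Mouse 7 (4.05% and 13.4%), mouse 1 (28.2% and 50.8%) and mouse 10 (55.8% and 57.9%) stand below the other mice.

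A peak in all 4 cold mice but only 1 warm mouse was seen at 152 regions (16.2%), against a background of 3.51% over all 16042 recurrent regions and 131 of the 2885 regions with H3K4me1 (4.54%). Since this pattern needs exactly 5 lists, and regions without H3K4me1 were more often in 5, the shares among regions in 5 lists are closer, at 29.7% without and 12.7% with H3K4me1. In 126 of the 152 the warm mouse was mouse 8, in 25 mouse 2 and in 1 mouse 1, so nearly all were absent from the short lists of mice 1 and 7, and the 126 were also absent from mouse 2. The reverse pattern, all 4 warm mice and 1 cold mouse, was seen at 0 regions, against 0.00623%. Since mouse 7 is warm and had the smallest list, temperature and list size cannot be told apart in these counts.

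The highest ranked of the 152 were the Herc1 region, with percentiles of 54.8, 63.2, 92.3 and 96.9 in cold mice 4, 5, 10 and 11 and 91.6 in warm mouse 8, and a pair of regions by Prl7d1, a member of the placental prolactin family. The latter, 3767 and 9158 bp from that start site, had percentiles of 32.4 to 94.7 in the cold mice and of 89.5 and 94.1 in mouse 8. A peak in all 4 NCD mice and 1 HFD mouse was seen at 12 regions (1.28%), below the background of 1.9% and the 2.25% of regions with H3K4me1. They included introns of Patj, a tight junction scaffold, and Entpd5, a nucleoside diphosphatase, and a region near Nrip2. The reverse diet pattern was seen at 0 regions, against 0.0312%.

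At the level of single regions, no change of rank with temperature or diet was detected. The 7 lists without mouse 7 shared 6888 regions, 145 of them without H3K4me1, and limma was fitted to normal scores of their fold ranks with temperature and diet as terms. After Benjamini-Hochberg adjustment over the 6888 regions, 0 passed an adjusted p of 0.05 for either factor (background 0% for both), and the lowest adjusted p in limma was 0.531 for temperature and 0.408 for diet. At an unadjusted p of 0.05, 17 of the 145 passed for temperature (11.7%, background 8.38%), all of them higher in cold (background 4.6% in that direction). For diet 10 passed (6.90%, background 6.71%), 8 of them higher on HFD (5.52%, background 3.22% in that direction). Over all 6888 regions these were 577 and 462. The direction for temperature depended on which mice were used. Without mouse 4, 13 of 145 passed and 6 of these were higher in cold. The members' median difference in normal score, cold minus warm, was then -0.256, against 0.105 as reported. That median was also below 0 without mouse 2 (-0.057) and with all 8 lists (-0.140). With all 8 lists 1 of 31 passed and 0 were higher in cold. With any mouse other than 4 left out, all or nearly all that passed were higher in cold. The direction for diet depended on mouse 8. Without mouse 8, 5 of 146 passed (background 314 of 6955), and 1 of these was higher on HFD (background 163 of 314). The members' median difference, HFD minus NCD, was then -0.048, against 0.369 as reported. With any mouse other than 8 left out, most that passed were higher on HFD, up to 44 of 46 without mouse 4 (background 522 of 1001). Cold ranks lay above all warm ranks, without overlap, at 12 of the 145 (8.28%, background 4.98%) and below them at 0 (background 3.24%). HFD ranks lay above all NCD ranks at 8 (5.52%, background 3.63%) and below at 1 (0.690%, background 3.92%). Distal regions with H3K4me1 (986 of the shared regions) had 6.69% cold above warm, 1.52% cold below warm, 6.49% HFD above NCD and 3.45% HFD below NCD. The shares above were thus not particular to regions without H3K4me1.

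Leading the 145 for temperature, and named after its values were seen, was a 2655-bp region near Jcad, which encodes a protein of endothelial cell junctions. Its percentile among the 6888 shared regions was 7.66 and 9.68 in warm mice 1 and 2, 12.1 in warm mouse 8, 74.5 and 54.4 in cold mice 4 and 5, and 67.6 and 56.1 in cold mice 10 and 11. The groups did not overlap, and the difference in normal score was 1.64 (SE 0.45) with a limma adjusted p of 0.531. The region near Tpst1, a tyrosylprotein sulfotransferase, had percentiles of 6.15, 2.92 and 1.07 in the warm mice and 72.8, 14.9, 49.1 and 45.8 in the cold (limma adjusted p = 0.531). For diet, the regions near Nfib, Tead1 and Atg7 led the 145. Their differences in normal score, HFD minus NCD, were 1.68 (SE 0.52), -1.70 (SE 0.54) and 1.44 (SE 0.47). The Tead1 region was thus lower on HFD. Both Dio2 regions with a peak in all 8 lists came next, within the first 5 of the 145. The Dio2 differences were 1.40 (SE 0.48) and 1.57 (SE 0.54). All of these regions had a limma adjusted p of 0.571 for diet.

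The regions without H3K4me1 lay farther from genes. By their highest summit, 467 (49.7%) were intergenic, 437 (46.5%) intronic and 35 (3.73%) exonic, whereas 63.5% of regions with H3K4me1 were intronic and 33.1% intergenic. The median distance to the nearest start site of any kind was 13922 bp (12152 bp with H3K4me1), and to the nearest protein-coding start site 25826 bp (19514 bp). That coding start site was more than 100000 bp away for 173 regions (18.4%), against 12.3%. The regions without H3K4me1 were spread over 20 chromosomes, with 1 on an unplaced scaffold. They were not spread evenly relative to the regions with H3K4me1. On chromosome X, 28 regions lacked H3K4me1 and only 8 carried it, whereas on every autosome the regions with H3K4me1 were more numerous. The cause of this difference was not tested. Another region without H3K4me1 lay within 5000 bp of 117 of the regions without it (12.5%), and a region with H3K4me1 within that distance of 120 (12.8%). A RefSeq start site absent from the annotation used lay within 2500 bp of 27 (2.88%), close to the 2.81% of regions with H3K4me1.

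The summits were poor in GC and CpG. Median GC content over 501 bases was 44.5% (46.9% with H3K4me1, 56.9% for recurrent regions near start sites), and an observed over expected CpG ratio above 0.6, the usual sign of a CpG island, was reached by 3 of 938 regions with sequence, against 53.7% near start sites. Repeat-masked bases made up a median of 14.6%, against 11.2% with H3K4me1. Repeats covered more than 50% of the window at 92 regions.

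Motif letters were found about as often as in other H3K27ac regions. At least 1 of the 15 motifs was found in 29.0% of the 201-base windows, in 29.5% with H3K4me1 and in 29.6% of all merged regions. The C/EBP motif of adipocyte factors was in 8.42% of windows without H3K4me1, in 6.62% with it and in 6.97% of all. AP-1 was in 6.61, 6.10 and 5.32%, and the E-box CAGCTG in 10.2, 11.5 and 11.5%. The core of the CTCF motif was in 0.853, 1.66 and 2.48%, and the direct repeat bound by PPAR with RXR in 0.426, 0.763 and 0.497%. These are descriptions of letters, with small counts for the rarer motifs (8 windows for CTCF and 4 for PPAR with RXR), and were not tested.

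The 939 regions were nearest to 741 protein-coding genes, of which 593 had 1 region, 115 had 2 and 33 had 3 or more. Of the 741 genes, 320 (43.2%) were also nearest to a distal region that carried H3K4me1. The genes with most regions, named after their counts were seen, were Dio2 and S1pr1 with 6 each and Trim52 with 5. There were 4 each for Ablim3, Dlc1, Elk3, Fry, Galnt15, Gja1, Pik3r1 and Prkch. Gja1 encodes the gap junction protein connexin 43.

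Dio2 encodes the type 2 deiodinase, which makes active thyroid hormone inside brown adipocytes and is needed for their full response to cold. Its 6 regions without H3K4me1 lay 92935 to 171005 bp from its start site, between chr12:90566533 and chr12:90645503, and 1 more distal region with H3K4me1 lay at 89865 bp. For each of the 6, an annotated start site of a gene that is not protein-coding was nearer than that of Dio2. The nearest of the 6, at chr12:90642790-90645503, had percentiles of 40.1 and 65.1 in warm NCD mice 1 and 2, 81.2 and 83.5 in cold NCD mice 4 and 5, 46.0 and 97.01 in warm HFD mice 7 and 8, and 79.1 and 98.8 in cold HFD mice 10 and 11. It ended 272 bp from the region with H3K4me1, and the nearest H3K4me1 peak was 1024 bp away, so at this locus H3K4me1 lay beside it. The other region with a peak in all 8 lists, at chr12:90580262-90581431 and 157007 bp out, had percentiles of 48.5, 57.9, 81.2, 44.8, 70.5, 98.2, 51.7 and 96.9 in mice 1, 2, 4, 5, 7, 8, 10 and 11. For both regions HFD mice 8 and 11 were highest, and cold and warm mice overlapped. H3K4me1 was 8981 bp from the second. The remaining 4 regions were each in 5 lists, with median percentiles of 21.02 to 67.1.

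**Figure D4:**
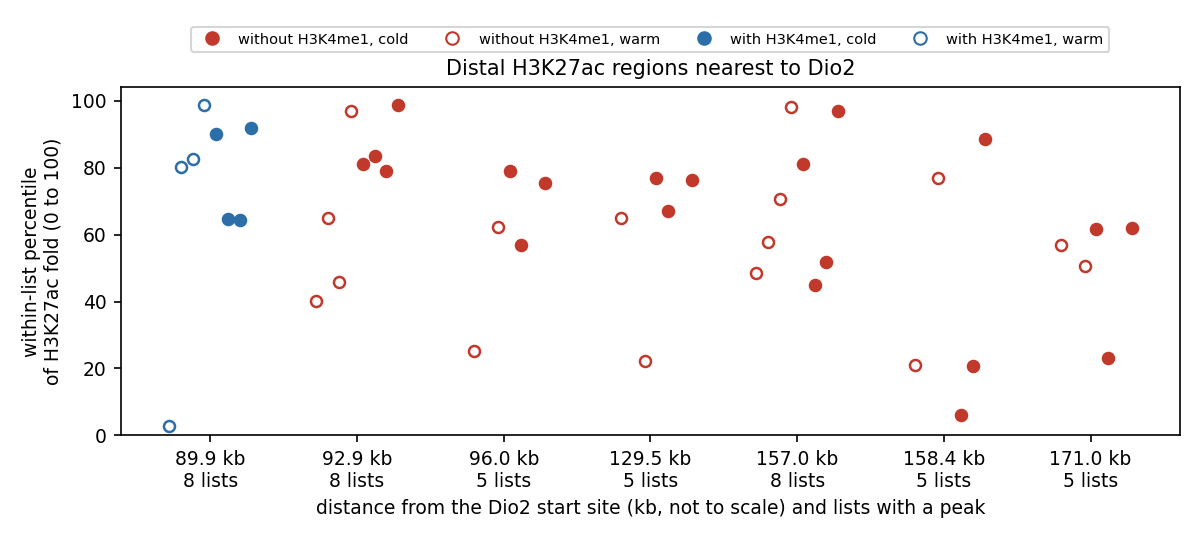
Within-list percentile of H3K27ac fold (0 to 100) in each mouse with a peak, for the 7 distal regions nearest to Dio2, ordered by distance from its start site (kb, spacing not to scale); filled points are cold mice, open points warm mice. The regions at 92.9 and 157.0 kb had a peak in 8 of 8 lists without H3K4me1, and cold and warm mice overlapped at both.

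S1pr1, the sphingosine-1-phosphate receptor of endothelial cells and lymphocytes, had 6 regions within 32.1 kb, at chr3:115761890-115794021, and 0 distal regions with H3K4me1. They were in 5 to 7 lists, with median percentiles of 40.8 to 70.8, and their nearest H3K4me1 peak was 22295 to 51870 bp away. The highest ranked had percentiles of 21.02 and 70.6 in warm mice 2 and 8, and of 82.1, 62.7, 70.99 and 73.2 in cold mice 4, 5, 10 and 11. Warm mouse 8 ranked above cold mouse 5, so the groups overlapped, and mice 1 and 7 had no peak. Elk3, an ETS-family transcription factor of vessels, had 4 regions in 5 or 6 lists, 3 of them in its introns.

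Gene lists were then compared by nearest protein-coding start site. The lists were drawn up with earlier results of these data known, and their counts are a description. Thermogenic brown fat genes took 14 of the 939 regions (1.49%), against 1.11% of regions with H3K4me1 and 0.679% of all recurrent regions. By nearest start site of any kind they took only 4 (0.426%), against 0.416% with H3K4me1 and 0.318% of all. Those 4 lay near Nrg4, Pdk4 and Ppargc1a, not Dio2, so the contrast depends on counting coding start sites alone. Of the 14, 6 were those of Dio2. The others lay near Ppargc1a, the coactivator that drives mitochondrial genes (2 regions), Pdk4, a brake on pyruvate oxidation (2), Esrrg, an oestrogen-related receptor, Nrg4, a growth factor secreted by brown fat, Elovl3, a fatty acid elongase, and Cidea, a lipid droplet protein. The region 16450 bp from Ppargc1a had percentiles of 41.5 and 40.8 in warm mice 2 and 8 and of 84.05, 36.3 and 65.7 in cold mice 4, 10 and 11, so warm and cold overlapped. The Nrg4 region, in its intron 5785 bp from the start, had 47.6, 48.6, 74.2, 53.1 and 82.6 in mice 2, 5, 8, 10 and 11, also with overlap.

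General adipocyte genes took 7 regions (0.745%, against 1.46% with H3K4me1 and 0.910% of all). They were Lpl, which releases fatty acids from circulating lipoproteins (2), the adipogenic factor Ebf1 (2), Fasn, which makes fatty acids, the nuclear receptor Rxra and the lipid droplet gene Plin2. By nearest start site of any kind, general adipocyte genes took 5 regions (0.532%, against 0.589% with H3K4me1 and 0.573% of all). The Ebf1 intron region at chr11:44810624-44811259, 636 bp wide, had a median percentile of 66.2, and an H3K4me1 peak was 212 bp from it. Adrenergic and cAMP signalling genes took 5 regions (0.532%, against 0.867% and 0.636%), near Pde4d, a cAMP phosphodiesterase (2), Nr4a2, Prkar2b, a regulatory subunit of protein kinase A, and Sik1, a kinase that cAMP induces. The Pde4d intron region at chr13:109587980-109589085 had percentiles of 20.4 and 23.9 in mice 1 and 2, 69.8 and 69.3 in mice 4 and 5, 91.6 in mouse 8, and 41.5 and 90.01 in mice 10 and 11. Warm mouse 8 was highest, so cold and warm overlapped.

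Endothelial and vascular genes took 10 regions (1.06%), against 11 of the 2885 with H3K4me1 (0.381%) and 0.362% of all recurrent regions. By nearest start site of any kind they took 5 (0.532%), against 0.277% with H3K4me1 and 0.281% of all. The 10 were 3 of Kdr, the main receptor for vascular endothelial growth factor, 2 of Angpt1, a ligand that steadies vessels, 2 of Cdh5, the cadherin of endothelial junctions, and 1 each of Pecam1, an adhesion molecule of endothelial cells, Tek, the receptor for Angpt1, and Sox17, a factor of arterial endothelium. The 3 Kdr regions, of 2377 to 3753 bp between chr5:75916640 and chr5:75964538, were each in mice 4, 5, 8, 10 and 11 and in no other list. Their nearest H3K4me1 peaks were 39775 to 83921 bp away and there was no distal region with H3K4me1 at this gene. The region in a Kdr exon had percentiles of 67.99, 39.6, 79.1 and 70.5 in cold mice 4, 5, 10 and 11 and 50.6 in warm mouse 8. The Kdr intron region had 59.2, 8.76, 65.4 and 73.5 in the cold mice and 70.6 in mouse 8. In both, mouse 5 was lowest and the warm mouse fell within the cold range.

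In the same list, the Pecam1 intron region had percentiles of 21.02 and 59.3 in warm mice 2 and 8, and of 83.1, 37.7, 69.1 and 65.7 in cold mice 4, 5, 10 and 11. Warm mouse 8 ranked above cold mouse 5, so the groups overlapped. The Tek intron region was 703 bp from an H3K4me1 peak and had percentiles of 72.9, 49.6, 49.9 and 78.3 in the cold mice and 6.06 in mouse 8, its lowest. A peak in all 4 cold mice and 1 warm mouse was seen at 5 of the 10 endothelial regions and at 0 of the 14 thermogenic ones, beside 16.2% of the 939 and a background of 3.51%. Among the members in exactly 5 lists, which the pattern needs, the share was 29.7%. Of regions with H3K4me1, 2 of 11 endothelial and 3 of 32 thermogenic ones had the pattern, beside 4.54% of that class. These counts are small, were read after the values were known and were not tested. Whether the share of endothelial cells differed between mice was not tested.

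Lists of other cell types took few regions in every class. Skeletal muscle genes took 0 (0.0623% of all recurrent regions), macrophage and other immune genes 1 (0.107%, against 0.0436% of all), near Tlr4 at 493200 bp. Fibroblast and preadipocyte genes took 2 (0.213%, against 0.193%), near Col3a1 and Meox1, and the 16 genes of unrelated tissues took 1 (0.107%, against 0.0187%), near Ins1 at 361232 bp. For the regions near Tlr4 and Ins1 the assignment rests on a gene far away.

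**Figure D5:**
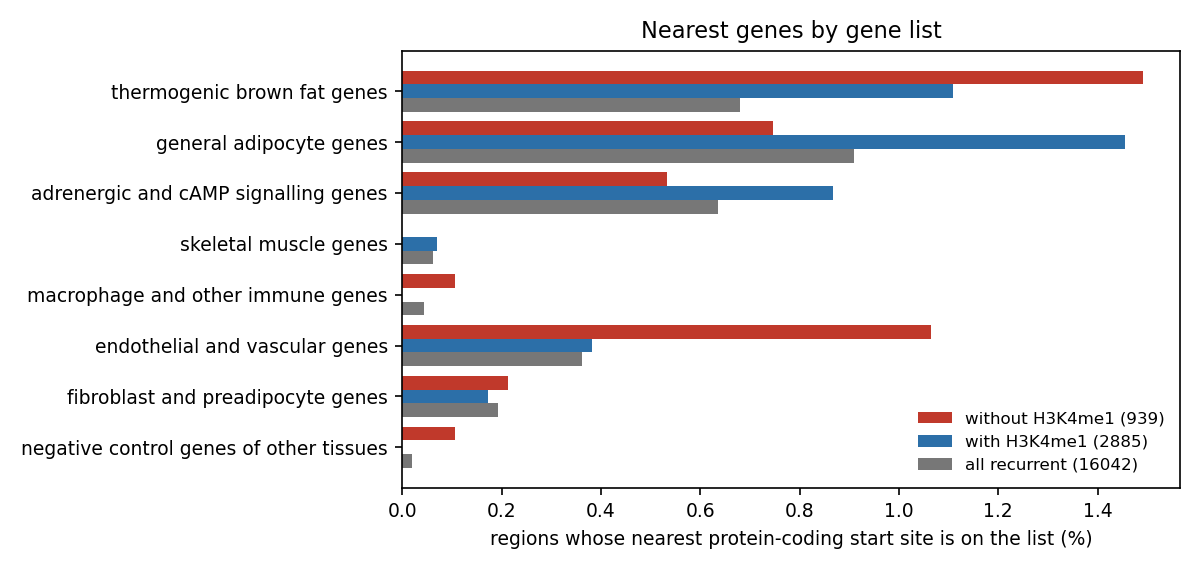
Percent of distal regions without H3K4me1 (939), of distal regions with H3K4me1 (2885) and of all recurrent H3K27ac regions (16042) whose nearest protein-coding start site belongs to each of 8 gene lists (bars, from 0). The bar without H3K4me1 is the longest of its list for thermogenic (1.49%) and endothelial genes (1.06%). It is also longest for immune (0.107%), fibroblast (0.213%) and negative control genes (0.107%), on 1 or 2 regions each. It is shorter than the bar with H3K4me1 for general adipocyte (0.745% against 1.46%), adrenergic (0.532% against 0.867%) and skeletal muscle genes (0% against 0.0693%).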

How the data were processed

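ChIP-seq of H3K4me3, H3K27ac, H3K4me1 and H3K27me3 was analysed in 8 mice, 2 per condition. Per the labels and the study's methods, the authors trimmed reads with cutadapt, aligned them to GRCm38 with Bowtie2 and called peaks per library against its own input with macs2 (for versions and thresholds, not given in the sources used here). Deposited lists give the fold over input (a ratio), −log10 p and −log10 q of each peak. Every listed −log10 q was at least 1.3. Read depth is unknown. Files of the 8 inputs were not used here.

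Overlapping H3K27ac peaks were merged by at least 1 shared base. Start sites were those of all GENCODE M21 transcripts, and the nearest protein-coding start site named a region. A region took its strongest peak per list. Percentiles were ranks of fold within a list. Mouse numbers are shared by the marks and pair both classes of region within a library. Tests of fold percentiles were exact permutations over mice (numpy 2.4.6) and limma 3.58.1 in R 4.3.3 on normal scores, with Benjamini-Hochberg adjustment, and were checked on simulated data. Differences in the presence of a peak, which the rule used, were computed and are given with no test. Genes were named by fixed counts: the 10 highest ranked, up to 10 in all 8 lists, the 5 widest, up to 3 for each presence pattern, up to 4 for each gene list and any H3K27me3 overlap. All others were chosen after their values were seen. The members and lists were chosen with earlier results of these data known. Alternatives changed the distance, number of lists, H3K4me1 rule, q, merging, annotation and mice.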

Additional observations from a re-analysis of the deposited data

Results flagged for a closer look

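Of 35 groups of mice examined over 7 measures of the regions without H3K4me1, 3 held a mouse far from the others by Dixon's gap, where chance flags about 1 in 20 groups (1.75 of 35). Cold mouse 10 had a peak at 55.8% of the regions, against 97.2 to 99.4% in the other 3 cold mice, and its H3K27ac list was the shortest of the 4 with 14511 peaks. Among warm mice, mouse 8 had 10.6% of its regions without H3K4me1 in the top 10% of its list, against 0 to 1.13% in the others. Among NCD mice, mouse 4 had 11.0% there, against 0.755 to 1.13%. The causes were not tested.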

How the results depend on the processing

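Of 159 alternative values, 135 stayed the same by fixed limits of size, direction or call, and 1 changed direction (presence by diet without mouse 7). Counts and shares of regions, which are among the 159, have no direction to change. The number of regions without H3K4me1 was 1574 with a peak in 4 or more lists, 427 in 6 or more and 314 at a −log10 q of at least 5, and it was 504 to 939 when 1 mouse was left out, which changes both the number of H3K27ac lists and the H3K4me1 lists searched. The share of distal regions without H3K4me1 was 29.1, 18.7 and 16.9% under the first 3, 20.8% with no H3K4me1 peak within 1000 bp, 30.3% with none within 500 bp of the summit, 29.4% when regions with H3K4me1 in 1 list were left out, 21.8% when mice 1, 7 and 10 were left out (chosen after seeing the data) and 19.1 to 26.0% when 1 mouse was left out. The percentile difference was -4.22 (exact p = 0.0859) over equal numbers of lists and -9.73 (exact permutation p = 0.172) without the replicate block that pairs both classes within a mouse, and -11.2 to -6.65 with 1 mouse left out. With 1 mouse left out, presence in cold minus warm mice was 18.1 to 43.9 points and HFD minus NCD -29.6 to 6.49 points, positive only without mouse 7. Relative to regions with H3K4me1 these contrasts were 6.71 to 12.3 points for temperature (10.6 without mouse 8) and 0.309 to 7.82 for diet. Ranks of −log10 p gave 5 calls for diet in limma, 0 of them without H3K4me1, and 0 calls were made for temperature or diet under every other alternative run. The basic GENCODE annotation, also chosen after seeing the data, gave 1011 regions. Where the causes of these changes are not given by the alternative itself they were not tested. Lists with few peaks (mice 1, 7 and 10) limit what absence of a peak means.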
